A study of Mus musculus with 16 samples.

Results

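The genes of transforming growth factor beta (TGF-beta), bone morphogenetic protein (BMP) and activin signalling were followed in mouse white fat across a high fat diet and the loss of SIRT1, an NAD-dependent deacetylase. Members were chosen through a pattern of symbols, with earlier results of these data known. It takes the Bmp, Gdf, Tgfb and inhibin genes, their receptors, the SMAD genes and the secreted binding proteins Fst, Fstl, Grem and Nog. The pattern found 54 of 18193 genes. Of these 54, 35 reached a log2 signal of 4 in at least 4 of 16 arrays and were tested. Bmp3 was not analysed here.

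All mice were of the C57BL6/J strain, ate a low or a high fat chow during 8 weeks that began at 4 weeks of age, and gave white adipose tissue at 12 weeks. Wild-type mice carried no Cre transgene. Knockout mice lacked Sirt1 through a Cre recombinase under the FABP4 promoter, which is active in adipocytes. No group carried the transgene with intact Sirt1, so that genotype and transgene cannot be told apart. Each of the 4 groups, wild type and knockout on either diet, had 4 arrays, which are written WT-low, WT-high, KO-low and KO-high with the replicate number. Whether replicates were separate mice is not stated in the labels. The p-values therefore measure only how far these samples spread, which may be technical.

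Ligands of this family bind pairs of type I and type II receptor kinases on the cell surface. TGF-beta and activin receptors then phosphorylate Smad2 and Smad3, BMP receptors phosphorylate Smad1, Smad5 and Smad9, and both classes enter the nucleus with Smad4. Smad6 and Smad7 block the receptors. Follistatins, noggin and gremlins bind ligands outside the cell, and TGF-beta is stored in the matrix in a latent complex. In fat, BMP signalling is known for its part in the commitment of precursors to adipocytes, and TGF-beta for restraining their differentiation and promoting matrix production.

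Of the members that passed the test in at least 3 of the 5 comparisons described here, Bmp4, Fstl1, Inhbb and Tgfb1 have a promoter in the RefSeq table used (build GRCm38.p6). The 250 bases before the start of each gene are shown because these genes carry much of the pattern that follows, each on the gene's own strand. Capitals mark GGGCGG or its complement CCGCCC, the GC box to which Sp1 binds.
Bmp4 (chr14:46390670-46390919, minus strand): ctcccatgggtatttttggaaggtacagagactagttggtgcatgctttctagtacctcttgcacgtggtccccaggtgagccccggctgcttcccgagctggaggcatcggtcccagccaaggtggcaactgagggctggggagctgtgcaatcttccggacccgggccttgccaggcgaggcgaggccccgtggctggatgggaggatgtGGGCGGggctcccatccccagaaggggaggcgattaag
Fstl1 (chr16:37776805-37777054, plus strand): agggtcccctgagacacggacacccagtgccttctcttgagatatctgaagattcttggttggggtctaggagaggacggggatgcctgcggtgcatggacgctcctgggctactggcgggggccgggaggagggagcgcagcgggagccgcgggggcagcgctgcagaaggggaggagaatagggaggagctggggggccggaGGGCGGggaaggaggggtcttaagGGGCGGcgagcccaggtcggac
Inhbb (chr1:119422249-119422498, minus strand): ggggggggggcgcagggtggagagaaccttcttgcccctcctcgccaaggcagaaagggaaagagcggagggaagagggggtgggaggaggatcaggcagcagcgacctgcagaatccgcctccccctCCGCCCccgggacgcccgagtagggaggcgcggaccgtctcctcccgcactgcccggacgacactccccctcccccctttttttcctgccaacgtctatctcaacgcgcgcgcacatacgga
Tgfb1 (chr7:25686752-25687001, plus strand): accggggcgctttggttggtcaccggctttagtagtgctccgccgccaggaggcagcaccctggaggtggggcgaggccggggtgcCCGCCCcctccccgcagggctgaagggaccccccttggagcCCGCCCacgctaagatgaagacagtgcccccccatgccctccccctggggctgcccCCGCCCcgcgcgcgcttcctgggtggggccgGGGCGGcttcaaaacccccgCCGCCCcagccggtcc
The GC content of these windows was 63.2% for Bmp4, 68% for Fstl1, 68% for Inhbb and 75.2% for Tgfb1. Bmp4 held 1 GC box, Fstl1 2, Inhbb 1 and Tgfb1 5. On both strands none of the 4 windows held the SMAD-binding word CAGAC, the GC-rich SMAD word GGCGCC or the TATA word TATAAA. Of all 32851 promoter windows of this length in the table, 42.2% held CAGAC, 9.59% GGCGCC, 32.7% GGGCGG and 12.4% TATAAA. Over the 47 windows of members, 46.8% held CAGAC, 17% GGCGCC, 66% GGGCGG and 17% TATAAA. Such matches describe letters in a window and no more.

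The arrays gave medians between 4.34 and 4.46 on the log2 scale, and arrays of 1 group correlated with r between 0.987 and 0.996. Adiponectin (Adipoq), a marker of adipocytes, lay between 13.2 and 13.7 in every array. Sirt1 itself was between 8.30 and 9.88 and did not pass the test between genotypes on either diet; the sources used here do not place its probe set against the deleted stretch. Of 10 macrophage markers, 7 rose on high fat in wild type, 7 in the knockout, 2 in the knockout on low fat and 5 in the knockout on high fat, and none fell. Of 9 stromal progenitor markers, 5 rose with diet in wild type and 4 in the knockout on low fat, and 1 fell with diet in the knockout and 1 in the knockout on high fat. Of 10 mesothelium markers, 1 fell with diet in wild type, 9 with diet in the knockout and 9 in the knockout on high fat. Of 10 endothelium markers, 3 rose with diet in wild type, 1 rose and 2 fell with diet in the knockout, and 4 fell in the knockout on high fat. Of 8 brown and beige fat markers, 6 fell with diet in wild type and 8 in the knockout, and 1 rose in the knockout on low fat. Of 8 adipocyte markers, 1 rose and 2 fell with diet in wild type, 2 fell with diet in the knockout, 1 rose and 1 fell in the knockout on low fat, and 1 fell in the knockout on high fat. Of 9 lymphocyte markers, 2 rose with diet in wild type and 1 in the knockout. No skeletal muscle marker of 10 passed the test, but Tnnt3 reached 8 in 5 arrays, namely WT-low 3 and 4, KO-low 2, WT-high 3 and KO-high 4. Of 10 epithelium markers 2 were tested, and 1 fell in the knockout on high fat. Wild-type high fat replicate 4 stood apart, with the urothelial genes Upk1a at 11.7 and Upk2 at 10.6 and the epithelial genes Cdh1 at 10.3 and Krt5 at 7.42. In bulk tissue, fewer cells of a type and less RNA per cell cannot be told apart.

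Across the 54 genes the ligands and the secreted binding proteins were the least complete classes on the arrays. Of 23 ligand genes 10 were tested, of 12 receptors 11, of 8 SMADs 7, of 7 binding proteins 3, and all 4 others. Bmp7, a BMP known for promoting brown fat, reached 4 in 1 array, with a highest value of 4.28. That array was WT-high 4, the one with high urothelial genes. Inha, the inhibin alpha subunit, reached 4 in 2 arrays, with a highest value of 4.06. The other 17 untested genes lay under 4 in every array. They were Bmp8a, Bmp8b, Bmp10, Bmp15, Gdf2, Gdf5, Gdf9, Gdf11, Inhba, Inhbc, Inhbe, Bmpr1b, Smad9, Fstl4, Fstl5, Grem1 and Nog. Signals of different probe sets cannot be compared as amounts, and a value under 4 is near the background of these arrays.

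**Figure D1:**
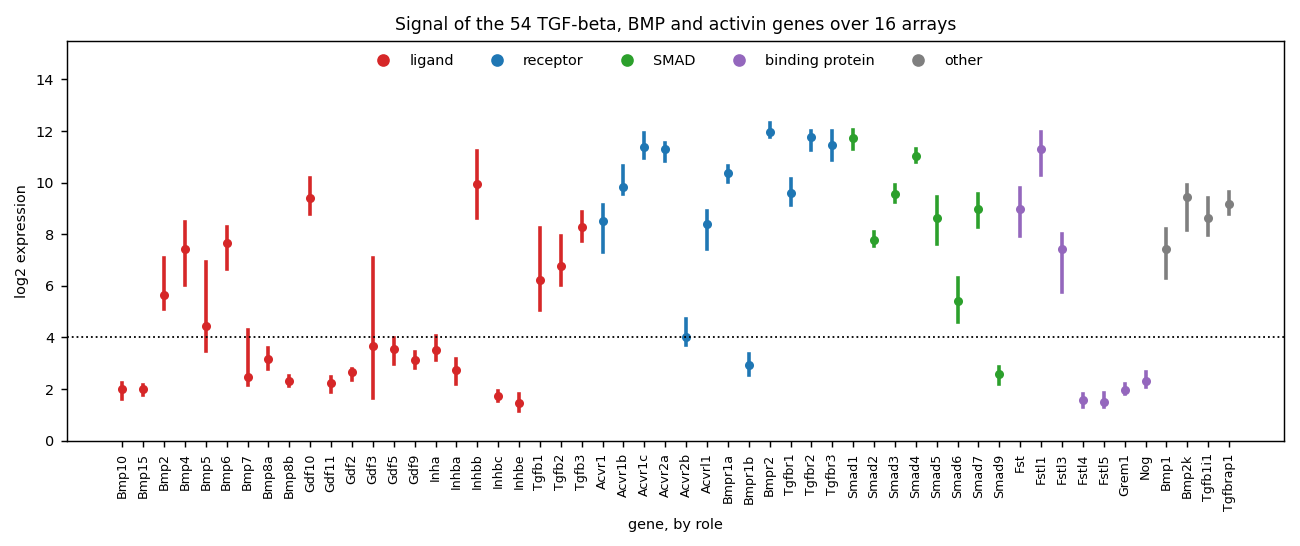
Log2 signal of the 54 genes, grouped by role. Each bar runs from the lowest to the highest of 16 arrays, the point is the mean, and the dotted line is the log2 value of 4 used in the filter; Gdf3 spans from 1.65 to 7.08, while most SMADs and receptors span a narrow range.

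The first question was what the diet did in wild type. Under high fat feeding 11 of the 35 tested members rose and 1 fell. Over all 12078 genes tested, 35.6% passed the same threshold, 20.5% upward and 15.2% downward. The median log2 change was 0.17 over members and 0.04 over all genes. The groups did not overlap for 11 members, against 30.8% of all genes. After centring arrays on their medians over tested genes, 10 members rose and 4 fell. The risers were 6 ligands (Gdf3, whose call rests on signals near the background, Tgfb1, Inhbb, Tgfb3, Bmp2 and Bmp4), the receptor Acvrl1, the binding protein Fstl1, and Bmp1, Bmp2k and Tgfb1i1. The faller was the receptor Acvr2b.

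In the knockout the same diet raised 5 of 35 members and lowered 7, against 29.2% of all genes past the threshold, 15.6% upward and 13.5% downward. The median change was -0.15 over members and -0.02 over all genes, and the groups did not overlap for 14 members, against 33.1% of all genes. After centring on the median, 4 members rose and 9 fell. Gdf3, Tgfb1, Acvrl1, Bmp1 and Tgfbr1 rose. Bmp4, Bmp6, Tgfb2, Gdf10, Bmpr2, Tgfbr3 and Smad5 fell.

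The knockout was also set against wild type within each diet. On the low fat diet 4 members rose (Inhbb, Fstl1, Fstl3 and Bmp1) and 1 fell (Acvr2b), against 18.9% of all genes past the threshold, 11.7% upward and 7.24% downward. Medians were 0.14 over members and 0.04 over all genes, and 4 members did not overlap, against 17.9% of all genes. On the high fat diet 2 members rose (Gdf3 and Tgfb1) and 5 fell (Bmp4, Bmp5, Bmp6, Smad7 and Tgfb1i1), against 15.1% of all genes, 8.58% upward and 6.47% downward. Medians were -0.21 over members and 0.00 over all genes, and 16 members did not overlap, against 26.1% of all genes. Each diet comparison shares arrays with each genotype comparison, so their values below stand side by side and are not independent.

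The interaction, the diet change in the knockout minus that in wild type, asked whether the genotypes responded differently. It was above 0 for 1 member (Gdf3) and below 0 for 6 (Bmp4, Inhbb, Tgfb1i1, Tgfb3, Fstl1 and Smad7), against 13% of all genes past the threshold, 5.12% upward and 7.87% downward. Its median was -0.28 over members and -0.01 over all genes. In all, 22 of the 35 members (62.9%) passed in at least 1 of the 5 comparisons, against 52.9% of all genes. All 7 interaction calls ended when the 5 arrays with Tnnt3 at 8 or more were left out, which keeps 11 arrays, with the same signs and adjusted p-values from 0.052 to 0.326 (limma, Benjamini-Hochberg). The interaction there was -1.68 for Bmp4, 1.58 for Gdf3, -1.09 for Tgfb3, -1.04 for Tgfb1i1, -0.99 for Fstl1 and -0.67 for Smad7. For Inhbb it was -1.825. Fstl3 alone passed there, at -1.67. In that fit the wild-type low fat group keeps only WT-low 1 and 2, with Fstl3 at 5.75 and 6.36. WT-low 3 and 4, at 7.11 and 8.00, are left out.

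**Figure D2:**
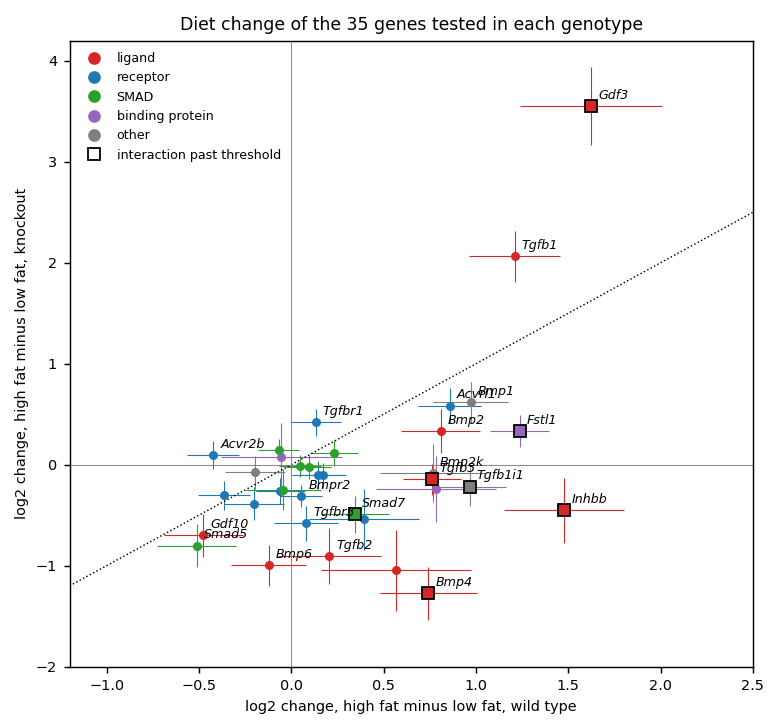
Log2 change from low to high fat in wild type (horizontal axis) and in the knockout (vertical axis) for the 35 tested members, with standard errors; colours give the role, squares mark an interaction past the threshold and the dotted line marks equal change. Gdf3 (with no floor on low values) and Tgfb1 lie above the line at 3.55 and 2.06 on the vertical axis, while Bmp4 lies farthest below it at -1.27.

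Among the ligands, Tgfb1 rose with the diet in both genotypes, and Gdf3 and Tgfb1 were higher in the knockout than in wild type under high fat feeding. Gdf3 (chr6:122605403-122610087, GRCm38.p6) encodes a TGF-beta family ligand that can act through activin-type receptors. In wild type, Gdf3 signals in replicates 1 to 4 were 1.82, 2.08, 2.25 and 1.65 on low fat and 2.54, 4.34, 3.02 and 4.39 on high fat. In the knockout, Gdf3 signals were 3.37, 2.30, 3.22 and 2.43 on low fat and 7.08, 5.87, 6.24 and 6.34 on high fat. All 4 knockout high fat arrays lay above the other 12, and no low fat array reached 4. Gdf3 therefore passed the filter through the knockout high fat arrays and 2 wild-type high fat arrays. With values under 4 set to 4, Gdf3 rose with diet by 2.38 in the knockout and exceeded wild type on high fat by 2.20. The wild-type diet change of 0.18 did not pass with that floor (adjusted p = 0.466, limma, n = 4 per group). Because the floor puts every low fat array at 4, the low fat groups have no spread and cannot differ. The floored interaction of 2.20 is therefore the genotype difference on high fat again. The small p-values of the floored fit are left out, since the missing spread lowers them. Without the floor the fit gave 3.55 (adjusted p = 9.22e-06) with diet in the knockout, 1.62 (adjusted p = 0.00392) with diet in wild type and 2.81 (adjusted p = 0.000281) between genotypes on high fat. Those sizes include differences among values under 4 and are no measure of how far Gdf3 moved. The interaction without the floor was 1.93 (SE 0.54, adjusted p = 0.0293). That call ended with the replicate number as a block (adjusted p = 0.0587). It also ended without WT-low 3, KO-low 2, WT-high 1 or 3, or KO-high 1, at 1.58 to 1.83 with adjusted p between 0.0511 and 0.0647.

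Tgfb1 (chr7:25687002-25705077), whose GC-box-rich promoter is shown above, encodes the TGF-beta isoform best known for its part in fibrosis and immune regulation. Wild-type Tgfb1 signals were 5.09, 5.23, 5.05 and 5.69 on low fat and 5.86, 6.68, 6.46 and 6.89 on high fat. Knockout Tgfb1 signals were 5.61, 5.88, 5.28 and 5.44 on low fat and 8.24, 7.64, 7.53 and 7.05 on high fat. The order was the same in both genotypes, with every high fat array above every low fat array of its genotype, and the knockout high fat arrays above all others. Tgfb1 rose with diet by 1.21 (SE 0.25, adjusted p = 0.00143, limma) in wild type and by 2.06 (SE 0.25, adjusted p = 2.05e-05) in the knockout, and the knockout exceeded wild type on high fat by 1.14 (adjusted p = 0.00587). The interaction of 0.85 did not pass (adjusted p = 0.119). The summed linear signal of the 10 macrophage markers ran from 11736 to 15965 in wild type and 16116 to 18548 in knockout on low fat. On high fat it ran from 16428 to 23091 in wild type and 26657 to 29817 in knockout, and none of the 10 was under 4 in every array. These sums stood in the same order of groups as Gdf3 and Tgfb1, and the part of macrophage RNA in both results was not tested.

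Tgfb3 and Inhbb rose with the diet in wild type, and their diet change was lower in the knockout. Inhbb (chr1:119415463-119422248) encodes the inhibin beta-B subunit, which pairs with itself to form activin B. Wild-type Inhbb signals were 8.64, 9.01, 8.92 and 9.71 on low fat and 10.64, 10.50, 10.91 and 10.15 on high fat. Knockout Inhbb signals were 10.10, 11.22, 10.12 and 9.93 on low fat and 9.02, 10.49, 9.97 and 10.09 on high fat. Wild-type low fat arrays lay below those of both comparison groups without overlap, and the knockout arrays of the 2 diets overlapped. Inhbb was 1.48 higher on high fat in wild type (SE 0.32, adjusted p = 0.00228, limma) and 1.27 higher in the knockout on low fat (adjusted p = 0.0124), which did not pass without the 5 arrays with high Tnnt3 (1.23, adjusted p = 0.0523). In the knockout its diet change was -0.45 (adjusted p = 0.32), which gave an interaction of -1.93 (SE 0.46, adjusted p = 0.0126). Tgfb3 (chr12:86056743-86079041) encodes another TGF-beta isoform. Wild-type Tgfb3 signals were 7.72, 7.89, 7.74 and 8.21 on low fat and 8.69, 8.84, 8.41 and 8.67 on high fat. Knockout Tgfb3 signals were 8.64, 8.19, 8.00 and 8.47 on low fat and 8.35, 7.97, 8.29 and 8.11 on high fat. The diets separated in wild type and overlapped in the knockout. Tgfb3 rose with diet by 0.76 in wild type (adjusted p = 0.00137) and changed by -0.15 in the knockout (adjusted p = 0.523), with an interaction of -0.91 (SE 0.22, adjusted p = 0.0143).

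Tgfb2 (chr1:186622787-186709697), the remaining TGF-beta isoform, fell with the diet in the knockout. Its knockout signals were 7.37, 7.93, 7.23 and 6.46 on low fat and 6.05, 6.24, 6.71 and 6.38 on high fat, which overlap through low fat replicate 4. Wild-type Tgfb2 ran from 6.25 to 7.16 on low fat and 6.49 to 7.23 on high fat. The knockout change was -0.90 (SE 0.28, adjusted p = 0.0228, limma). That call ended without KO-low 1 or 2 or KO-high 1 or 2, at -0.87 to -0.68 with adjusted p between 0.0508 and 0.0798. Without the 5 arrays with high Tnnt3 it was -0.69 (adjusted p = 0.13). Dimmer Tgfb2 probe sets gave -0.66, -0.78 and -1.13 with diet in the knockout (adjusted p = 0.0444, 0.0357 and 0.00513 over probe sets, limma). In the interaction they gave -0.71, -1.06 and -1.25 (adjusted p = 0.177, 0.0766 and 0.0439). The brightest gave -1.11 there and did not pass.

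Of the BMP ligands, Bmp4 changed in opposite directions with the diet in the 2 genotypes. Bmp4 (chr14:46383525-46390669) is known for committing precursors to the adipocyte lineage. Wild-type Bmp4 signals were 7.59, 7.31, 6.71 and 7.43 on low fat and 8.02, 7.72, 7.80 and 8.46 on high fat. Knockout Bmp4 signals were 7.66, 8.08, 7.96 and 7.60 on low fat and 6.05, 6.61, 7.37 and 6.18 on high fat. The diets did not overlap in either genotype, with high fat above low fat in wild type and below it in the knockout. Bmp4 fell with diet by 1.27 in the knockout (SE 0.26, adjusted p = 0.00176, limma) and rose by 0.74 in wild type (SE 0.26, adjusted p = 0.0374). On high fat the knockout differed from wild type by -1.45 (adjusted p = 0.00177), and the interaction was -2.02 (SE 0.37, adjusted p = 0.00293). The wild-type rise did not pass with the replicate number as a block (adjusted p = 0.0648), with array weights (0.63, adjusted p = 0.161) or without the arrays with high Tnnt3 (0.62, adjusted p = 0.215). It also did not pass without WT-low 2 or 3 or WT-high 1 or 4, at 0.56 to 0.76 with adjusted p between 0.0519 and 0.121.

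Bmp6 (chr13:38345716-38500314), a BMP known as a regulator of iron metabolism, was low in the knockout under high fat feeding. Its signals there were 6.65, 7.46, 6.68 and 6.94. Knockout low fat arrays gave 8.11, 7.76, 8.11 and 7.73, wild-type low fat arrays 7.93, 7.55, 8.14 and 8.29, and wild-type high fat arrays 7.85, 8.30, 7.69 and 7.60. No array of the other 3 groups was as low as any knockout high fat array. Bmp6 fell with diet in the knockout by 1.00 (SE 0.20, adjusted p = 0.00174, limma), and was lower than wild type on high fat, with a difference of -0.93 (adjusted p = 0.00654). The interaction of -0.87 did not pass (adjusted p = 0.0579).

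Bmp5 (chr9:75775365-75900316) lay near the background. Its knockout high fat signals of 3.52, 3.50, 3.47 and 3.67 were under those of all other arrays. The wild-type high fat signals were 4.45, 4.39, 4.65 and 6.91, and the low fat arrays ran from 4.08 to 4.90 in wild type and 4.27 to 4.88 in the knockout. The difference from wild type on high fat was -1.56 (SE 0.40, adjusted p = 0.0165, limma). It was -0.95 without WT-high 4 (adjusted p = 0.00285), and -1.10 with values under 4 set to 4, where it no longer passed (adjusted p = 0.0788). It also did not pass with only the groups compared in the fit (adjusted p = 0.0521) or without the arrays with high Tnnt3 (-1.75, adjusted p = 0.0712). Bmp2 (chr2:133552159-133562896), another BMP with a part in precursor differentiation, rose with diet in wild type. Its wild-type signals were 5.57, 5.39, 5.12 and 5.45 on low fat and 5.84, 5.85, 5.98 and 7.09 on high fat, without overlap. Knockout Bmp2 ran from 5.18 to 5.45 on low fat and 5.56 to 5.70 on high fat. The wild-type rise was 0.81 (SE 0.21, adjusted p = 0.00786) and 0.51 without WT-high 4 (adjusted p = 0.0054). It did not pass without the arrays with high Tnnt3 (0.78, adjusted p = 0.096) or with only the groups compared in the fit (adjusted p = 0.0502). That array, high in both Bmp2 and Bmp5, is the one with high urothelial genes, and the part of that tissue in the 2 signals was not tested.

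Gdf10 (chr14:33923587-33936514), also called BMP3b, fell with the diet in the knockout. Its signals were 9.51, 9.58, 9.74 and 10.18 on low fat and 8.95, 9.19, 9.29 and 8.79 on high fat, without overlap. Wild-type Gdf10 ran from 9.21 to 10.06 on low fat and from 8.93 to 9.40 on high fat, which overlap. The knockout change was -0.70 (SE 0.21, adjusted p = 0.022, limma), and the wild-type change of -0.48 did not pass (adjusted p = 0.095). The knockout call ended without KO-low 4 or KO-high 1 or 4, at -0.66 to -0.56 with adjusted p between 0.0574 and 0.0678. The interaction of -0.22 did not pass (adjusted p = 0.657).

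The falls of Bmp4, Bmp5 and Bmp6 in the knockout on high fat came in the group whose mesothelium markers were low. The summed linear signal of those 10 markers ran from 1405 to 3304 there, against 5095 to 10740 in wild type on high fat. It ran from 5548 to 7223 in the knockout and 3181 to 8271 in wild type on low fat. The mesothelium markers were above 4 in at least 1 array each. Krt19, Upk1b and Krt8, which are part of the sum, were 11.2, 10.5 and 10.2 in WT-high 4, the array with high urothelial genes. In the rest of that group they reached at most 8.96, 8.84 and 6.16, while Bnc1, Gpm6a and Wt1 were not highest in WT-high 4. For the 10 endothelium markers the sum ran from 5073 to 6704 in the knockout and 7734 to 8676 in wild type on high fat. On low fat the endothelium sum ran from 6170 to 6284 in the knockout and 5012 to 6928 in wild type. The part of either cell type in these falls was not tested.

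**Figure D3:**
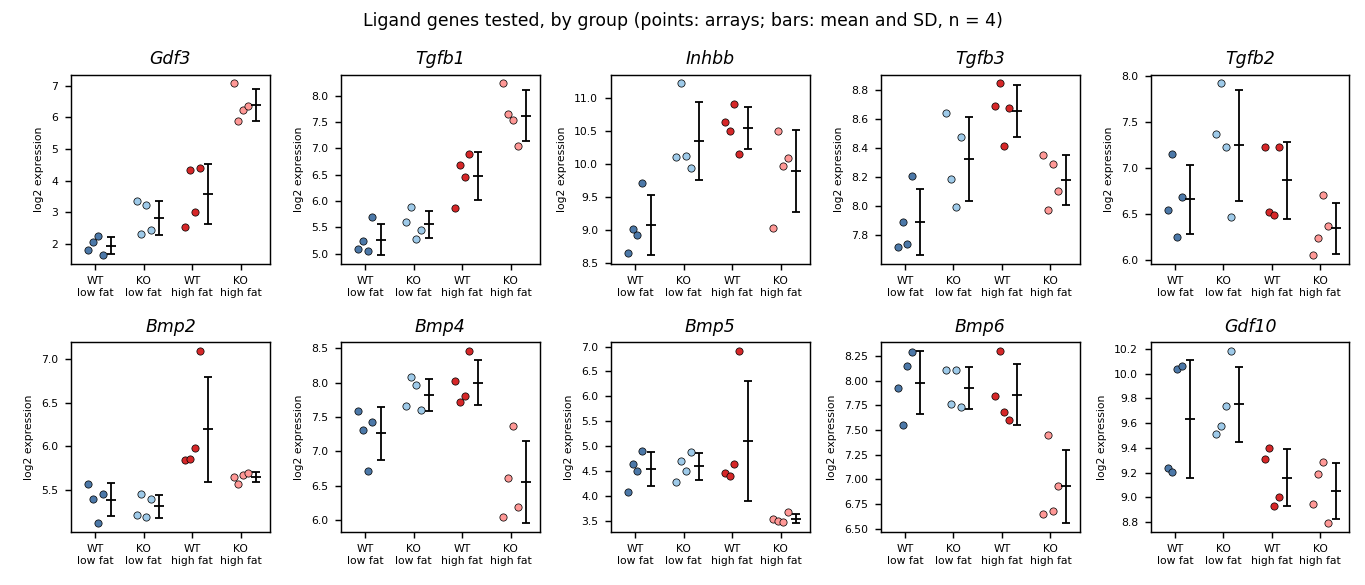
Log2 signal of the 10 tested ligand genes in each group, with 1 point per array and a bar for the mean and SD of 4 arrays. Gdf3 and Tgfb1 are highest in knockout fat on high fat, where Bmp4, Bmp5 and Bmp6 are lowest; single high arrays stand out for Bmp2 at 7.09 and Bmp5 at 6.91 in wild type on high fat.

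Of 11 receptors tested, 1 rose and 1 fell with diet in wild type, where 20.5% of all genes rose and 15.2% fell. With diet in the knockout 2 rose and 2 fell, against 15.6% and 13.5% of all genes, and 1 fell in the knockout on low fat, against 7.24%. None passed in the knockout on high fat or in the interaction with limma, where 3 and 4 were at an unadjusted p under 0.05 and 15.1% and 13% of all genes passed. Acvrl1 (chr15:101128522-101145336), the type I receptor ALK1 known from endothelium, rose with diet in both genotypes. Wild-type Acvrl1 was 7.61, 7.42, 8.05 and 8.33 on low fat and 8.39, 8.89, 8.76 and 8.80 on high fat, and knockout Acvrl1 was 8.00, 8.20, 8.36 and 8.29 and then 8.78, 8.79, 8.91 and 8.71. The diets did not overlap in either genotype. The rise was 0.86 in wild type (SE 0.17, adjusted p = 0.00114, limma) and 0.58 in the knockout (adjusted p = 0.0172). Without KO-low 1 the knockout rise was 0.52 and did not pass (adjusted p = 0.0543), and with the mean over probe sets it was 0.37 (adjusted p = 0.108). The dimmer Acvrl1 probe set gave 0.39 in wild type and 0.16 in the knockout and passed in neither (adjusted p = 0.182 and 0.643 over probe sets). The interaction of -0.27 did not pass (adjusted p = 0.475).

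Tgfbr1, the type I TGF-beta receptor, and Tgfbr3, the co-receptor betaglycan, moved in opposite directions with diet in the knockout. Knockout Tgfbr1 (chr4:47353222-47414926) was 9.62, 9.55, 9.61 and 9.29 on low fat and 10.13, 9.91, 9.99 and 9.71 on high fat, a rise of 0.42 (adjusted p = 0.0303, limma) without overlap. Wild-type Tgfbr1 was 9.34, 9.79, 9.12 and 9.50 on low fat and 9.61, 9.49, 9.57 and 9.61 on high fat, which overlap. Knockout Tgfbr3 (chr5:107106567-107289629) was 11.63, 11.87, 11.99 and 11.54 on low fat and 10.89, 11.32, 11.24 and 11.25 on high fat, a change of -0.58 (adjusted p = 0.0201) without overlap. Wild-type Tgfbr3 ran from 10.97 to 11.78 on low fat and 11.33 to 11.59 on high fat. The Tgfbr1 call ended without KO-low 2 or 4 or KO-high 1, 2 or 3, at 0.34 to 0.43 with adjusted p between 0.0513 and 0.0927. Its mean over probe sets gave 0.09 (adjusted p = 0.673), and centring arrays on their medians 0.38 (adjusted p = 0.0577). That mean takes in probe sets that failed the filter, and no further Tgfbr1 probe set passed it. The Tgfbr3 call ended without KO-low 2 or 3 or KO-high 1, at -0.54 to -0.49 with adjusted p between 0.0535 and 0.0699, and without the arrays with high Tnnt3 (-0.57, adjusted p = 0.0647). A dimmer Tgfbr3 probe set fell by 1.52 (adjusted p = 0.00957 over probe sets).

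Bmpr2 (chr1:59764279-59878081), the type II BMP receptor, changed by -0.31 with diet in the knockout (adjusted p = 0.0464, limma). Its knockout signals were 12.32, 12.13, 12.14 and 11.91 on low fat and 11.88, 11.77, 11.79 and 11.80 on high fat. Those ranges do not overlap, but the call was lost with the replicate number as a block (adjusted p = 0.056). It was also lost without any 1 of 10 arrays, which were all of the knockout high fat arrays, KO-low 1 to 3, WT-high 2 and 3 and WT-low 4, with adjusted p between 0.0548 and 0.142. The probe set with the largest SD gave 0.18, of opposite sign (adjusted p = 0.529), and the mean over probe sets -0.14 (adjusted p = 0.302). The call was further lost with quantile normalization, with only the groups compared in the fit and without the arrays with high Tnnt3 (adjusted p = 0.0572, 0.0554 and 0.211). Acvr2b (chr9:119401583-119442148), a type II activin receptor, lay near the background. Wild-type Acvr2b was 4.71, 4.08, 4.48 and 4.15 on low fat and 3.89, 3.84, 4.11 and 3.90 on high fat, which overlap. Knockout Acvr2b was 3.69, 3.71, 4.04 and 4.04 on low fat and 4.08, 3.95, 3.93 and 3.90 on high fat. On low fat the genotypes did not overlap. It changed by -0.42 with diet in wild type (adjusted p = 0.0268) and by -0.49 in the knockout on low fat (adjusted p = 0.0238). The diet call was lost without WT-low 1 or 3 or WT-high 1, 2 or 4, with adjusted p between 0.0553 and 0.0926. The genotype call was lost without WT-low 1 or 3 or KO-low 1 or 2, with adjusted p between 0.0595 and 0.0806, and with values under 4 set to 4 (adjusted p = 0.0601). Both were lost with only the groups compared in the fit (adjusted p = 0.0776 and 0.106) and without the arrays with high Tnnt3 (adjusted p = 0.0816 and 0.178), and the diet call with array weights (adjusted p = 0.0744).

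Acvr1, Acvr1b, Acvr1c, Acvr2a, Bmpr1a and Tgfbr2 passed in no comparison. Acvr1c, the nodal and activin receptor ALK7 found in adipocytes, ran from 10.95 to 11.91. Acvr1, the type I receptor ALK2, differed by -0.80 between knockout and wild type on high fat (adjusted p = 0.0846, limma). Tgfbr2, the type II TGF-beta receptor, differed there by -0.37 (adjusted p = 0.0561). Other probe sets of these genes did not all follow the brightest. A dimmer Acvr1c probe set gave -1.30 with diet in wild type (adjusted p = 0.00176 over probe sets) and -1.23 in the knockout on low fat (adjusted p = 0.0056). A dimmer Acvr2a probe set gave 0.86 with diet in the knockout (adjusted p = 0.000615), where the brightest gave -0.10. For Bmpr1a a dimmer probe set gave 0.74 with diet in wild type (adjusted p = 0.00279), where the brightest gave -0.06.

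Of 7 SMAD genes tested, 1 fell with diet in the knockout, 1 fell in the knockout on high fat and 1 had an interaction below 0, where 13.5%, 6.47% and 7.87% of all genes did. With diet in wild type and in the knockout on low fat 0 passed with limma, where 1 and 0 were at an unadjusted p under 0.05 and 35.6% and 18.9% of all genes passed. Smad5 (chr13:56703010-56742378), a transducer of BMP signals, was 8.83, 9.26, 8.61 and 8.63 in the knockout on low fat and 7.63, 7.89, 8.32 and 8.28 on high fat. The diets did not overlap, and the change was -0.80 (SE 0.22, adjusted p = 0.0108, limma). It was -0.74 without the arrays with high Tnnt3 (adjusted p = 0.0504), and dimmer probe sets gave -0.38 and -0.22 (adjusted p = 0.125 and 0.359 over probe sets). Wild-type Smad5 was 8.52, 9.45, 9.39 and 8.82 on low fat and 8.47, 8.60, 8.72 and 8.34 on high fat, which overlap, with a change of -0.51 (adjusted p = 0.0755). Smad7, the inhibitory SMAD of TGF-beta signalling, was 9.57, 8.83, 9.27 and 9.20 in wild type and 9.18, 8.40, 8.72 and 8.28 in the knockout on high fat, which overlap. Its difference there was -0.57 (adjusted p = 0.046) and its interaction -0.84 (adjusted p = 0.0445). A dimmer Smad7 probe set gave -1.40 on high fat and -1.56 in the interaction (adjusted p = 0.00422 and 0.0214 over probe sets), and -0.87 with diet in the knockout (adjusted p = 0.03). Of the fits that left out 1 array, the first call of the brightest held only without WT-low 2 or 3, WT-high 2 or KO-high 1. Without any of the other 12 arrays its adjusted p was between 0.0506 and 0.139. It was also lost with no filter, with only the groups compared in the fit and without the arrays with high Tnnt3 (adjusted p = 0.0571, 0.0904 and 0.299). The interaction call held only without WT-low 4, KO-low 3, WT-high 2 or KO-high 1, and without any of the other 12 its adjusted p was between 0.0511 and 0.0914. It was lost with no filter and with centred arrays too (adjusted p = 0.0552 and 0.0591). Smad1, Smad2, Smad3, Smad4 and Smad6 passed in no comparison. Smad4, the shared partner, ran from 10.81 to 11.31 over 16 arrays. Dimmer Smad4 probe sets gave -0.59 and -0.38 in the knockout on low fat (adjusted p = 0.0158 and 0.0471 over probe sets), where the brightest gave -0.08.

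Among the binding proteins, Fstl1 (chr16:37777055-37836516), a secreted follistatin-like glycoprotein made by mesenchymal cells, rose with diet in wild type. Wild-type Fstl1 was 10.30, 10.47, 10.61 and 10.87 on low fat and 11.78, 11.96, 11.71 and 11.74 on high fat. Knockout Fstl1 was 11.19, 11.62, 11.40 and 10.78 on low fat and 11.72, 11.46, 11.56 and 11.58 on high fat. The diets were apart in wild type and overlapped in the knockout, and on low fat the genotypes overlapped through knockout replicate 4. The rise was 1.24 (SE 0.16, adjusted p = 3.31e-05, limma) with diet in wild type and 0.69 (adjusted p = 0.00745) in the knockout on low fat, the second of which did not pass with only the groups compared in the fit (adjusted p = 0.0554). The diet change in the knockout was 0.33 (adjusted p = 0.133) and the interaction -0.90 (SE 0.23, adjusted p = 0.0165). With the probe set of the largest SD the interaction was -0.96 and did not pass (adjusted p = 0.142). Fstl3, a follistatin-like binder of activins and myostatin, was 5.75, 6.36, 7.11 and 8.00 in wild type and 7.95, 7.79, 7.64 and 7.69 in the knockout on low fat, which overlap. Its difference of 0.96 (adjusted p = 0.0478) held only without WT-low 4. Without any other array the adjusted p was between 0.0515 and 0.154, and without WT-low 1 the difference was 0.61. It did not pass with the replicate number as a block (adjusted p = 0.0626), with no filter (adjusted p = 0.0652), with centred arrays (adjusted p = 0.0598), with only the groups compared in the fit (adjusted p = 0.151) or with array weights (0.58, adjusted p = 0.178). Follistatin itself, Fst, ran from 7.93 to 9.78 and passed in no comparison, although a dimmer probe set gave 0.74 with diet in the knockout (adjusted p = 0.000719 over probe sets) and an interaction of 0.90 (adjusted p = 0.00784).

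The summed linear signal of 9 stromal progenitor markers ran from 21971 to 25879 in wild type and 25448 to 31399 in the knockout on low fat. On high fat it ran from 28975 to 30655 in wild type and 25201 to 28528 in the knockout. Of these markers, 3 had an interaction below 0 and none above. Like Fstl1, Inhbb and Tgfb3, the sums were lowest in wild type on low fat, and their part in those results was not tested.

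The 4 remaining members are a protease, a kinase and proteins named for the pathway. Bmp1 (chr14:70474555-70520716) is no BMP ligand but the protease that trims procollagen and releases ligands from antagonists. Wild-type Bmp1 was 6.55, 6.30, 6.68 and 6.90 on low fat and 7.83, 7.37, 7.62 and 7.50 on high fat, without overlap. Knockout Bmp1 was 7.38, 7.97, 7.54 and 6.77 on low fat and 8.22, 7.94, 8.13 and 7.84 on high fat, which overlap. It rose by 0.97 with diet in wild type (adjusted p = 0.00168, limma), by 0.62 with diet in the knockout (adjusted p = 0.0316) and by 0.81 in the knockout on low fat (adjusted p = 0.0121). The diet call in the knockout was lost without KO-low 1 or 4 or KO-high 1 or 3, with adjusted p between 0.0645 and 0.0921, and was 0.40 without KO-low 4. It was lost with only the groups compared in the fit (adjusted p = 0.0568) and with the mean over probe sets (0.35, adjusted p = 0.0538). That mean takes in a probe set that failed the filter. A dimmer Bmp1 probe set that passed the filter gave 0.60 with diet in the knockout (adjusted p = 0.0246 over probe sets, limma). It gave 0.73 with diet in wild type (adjusted p = 0.00659) and 0.50 in the knockout on low fat (adjusted p = 0.0709). The low fat genotype call was lost with only the groups compared in the fit (adjusted p = 0.0618) and without the arrays with high Tnnt3 (adjusted p = 0.0631). Tgfb1i1 (chr7:128246812-128255699), the focal adhesion adaptor Hic-5, was 8.15, 8.06, 7.97 and 8.47 in wild type on low fat and 9.30, 8.71, 9.09 and 9.40 on high fat. In the knockout it was 8.74, 9.28, 8.46 and 8.39 on low fat and 8.68, 8.23, 8.64 and 8.44 on high fat. The diets separated only in wild type, where the rise was 0.97 (SE 0.20, adjusted p = 0.00132), and the interaction was -1.18 (SE 0.28, adjusted p = 0.0117). The difference between genotypes on high fat was -0.63 (adjusted p = 0.0412). That call ended with the replicate block (adjusted p = 0.0668), with no filter (adjusted p = 0.0517), without the arrays with high Tnnt3 (adjusted p = 0.0935), and without KO-low 1, any KO-high array or WT-high 1, 3 or 4, with adjusted p between 0.0524 and 0.108.

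Bmp2k, a kinase induced by BMP2, rose by 0.77 with diet in wild type (adjusted p = 0.0472, limma). Its wild-type signals were 8.47, 9.69, 8.16 and 9.53 on low fat and 9.60, 9.77, 9.90 and 9.65 on high fat, which overlap. The call held only without WT-low 2 or 4, KO-low 4 or KO-high 1. Without any of the other 12 arrays the adjusted p was between 0.0529 and 0.159, and the change was 0.50 without WT-low 3. It was lost with no filter, with centred arrays, with only the groups compared in the fit and without the arrays with high Tnnt3 (adjusted p = 0.0629, 0.0744, 0.104 and 0.228). Another Bmp2k probe set gave 0.71 with diet in wild type and 0.59 with diet in the knockout (adjusted p = 0.00483 and 0.0195 over probe sets), where the brightest gave -0.09 in the knockout. Tgfbrap1, an adaptor of the TGF-beta receptors, passed in no comparison and ran from 8.77 to 9.63.

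**Figure D4:**
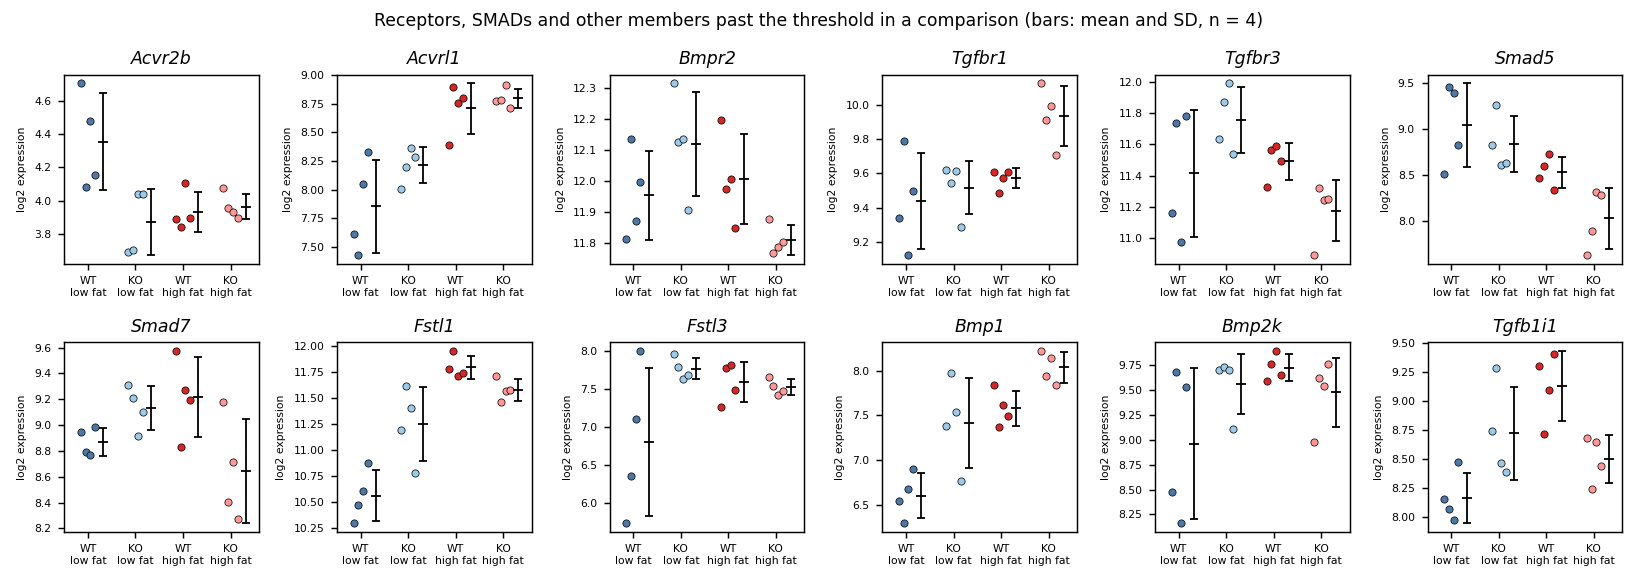
Log2 signal by group for the 12 receptors, SMADs, binding proteins and other members that passed in a comparison, with 1 point per array and a bar for the mean and SD of 4 arrays. Fstl1, Bmp1 and Tgfb1i1 separate the diets in wild type, and Acvrl1 in both genotypes.

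Other genes of the pathway were taken from 5 lists with 77 tested genes in all. With diet in wild type 29 rose and 5 fell, with diet in the knockout 18 rose and 14 fell, in the knockout on low fat 17 rose and 5 fell, and on high fat 9 rose and 9 fell. That was 44.2%, 41.6%, 28.6% and 23.4% past the threshold in that order, against 35.6%, 29.2%, 18.9% and 15.1% of all genes. The interaction was above 0 for 1 and below 0 for 9 (13% of the 77, as of all genes), or for 4 and 9 with arrays centred on their medians. The median changes in the 4 comparisons and the interaction were 0.23, -0.06, 0.17, -0.11 and -0.25, against 0.04, -0.02, 0.04, 0.00 and -0.01 over all genes.

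In the list of TGF-beta target genes, 16 of 21 tested genes rose with diet in wild type and none fell, with a median change of 1.04, where 20.5% of all genes rose. Tnc, the matrix glycoprotein tenascin C, rose by 2.62 (SE 0.35, adjusted p = 4.59e-05, limma), Comp, a cartilage matrix protein, by 2.00 (adjusted p = 2.47e-06), Col1a1, a chain of type I collagen, by 1.62 (adjusted p = 6.34e-05) and Col5a1, a chain of type V collagen, by 1.09 (adjusted p = 2.77e-05). In the knockout 10 rose and none fell, with a median of 0.53, where 15.6% of all genes rose. They included Timp1, an inhibitor of matrix proteases, at 2.97 (adjusted p = 3.48e-05), Comp at 2.30 (adjusted p = 1.06e-06) and the metalloprotease Adam12 at 1.10 (adjusted p = 0.000569). On low fat 9 rose in the knockout, among them the matricellular Ccn1 by 1.15 (adjusted p = 0.00788), and on high fat 5 rose, among them Timp1 by 1.59 (adjusted p = 0.0105), where 11.7% and 8.58% of all genes rose. The interaction was below 0 for 4 genes, against 7.87% of all genes. They were Fn1, which encodes fibronectin, at -1.15 (adjusted p = 0.00609), Ccn2, or connective tissue growth factor, at -1.33 (adjusted p = 0.0179), Ccn1 at -1.42 (adjusted p = 0.0238) and the smooth muscle actin Acta2 at -1.02 (adjusted p = 0.0247). The Ccn1 call ended without KO-high 1 (adjusted p = 0.0508), and the Acta2 call without WT-low 1 or KO-low 2 (adjusted p = 0.0515 and 0.0526). Of 9 stromal progenitor markers, 5 rose with the same diet in wild type, and their part in these rises was not tested.

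Of 7 tested BMP target genes, 3 fell with diet in the knockout and 3 in the knockout on high fat, and none rose in either. Of all genes, 13.5% fell in the first comparison and 6.47% in the second. Both times these were Id1, Id4 and Gata2, transcription regulators of which the Id genes are the classical BMP targets. Id4 fell by 1.39 with diet in the knockout (SE 0.34, adjusted p = 0.00558, limma), differed by -1.61 on high fat (adjusted p = 0.00452) and had an interaction of -1.77 (adjusted p = 0.0237). The interaction call ended without KO-low 2 or KO-high 1 (adjusted p = 0.0507 and 0.0526). Id1 changed by -0.90 with diet in the knockout (adjusted p = 0.0103) and differed by -0.92 on high fat (adjusted p = 0.0165). The second of these calls ended without WT-high 4 or KO-high 1 (adjusted p = 0.052 and 0.0517). Gata2 changed by -0.54 with diet in the knockout (adjusted p = 0.0434), which was lost without KO-low 2, 3 or 4, WT-high 1 or KO-high 1, 2 or 3, with adjusted p between 0.0512 and 0.134. It differed by -0.64 on high fat (adjusted p = 0.0353), which was lost without WT-high 1 or 4 or KO-high 1 or 3, with adjusted p between 0.0729 and 0.12. In wild type 1 rose with diet, Id2, by 0.76 (adjusted p = 0.00575), and 1 fell, Atoh8, with a change of -0.54 (adjusted p = 0.0129), where 20.5% and 15.2% of all genes did. Neither passed without the arrays with high Tnnt3. The calls for Id1 and Id4 came in the group in which Bmp4, Bmp5 and Bmp6 and the mesothelium markers were low. In that group 4 of 10 endothelium markers were also lower than in wild type on high fat. The part of either cell type in these calls was not tested.

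**Figure D5:**
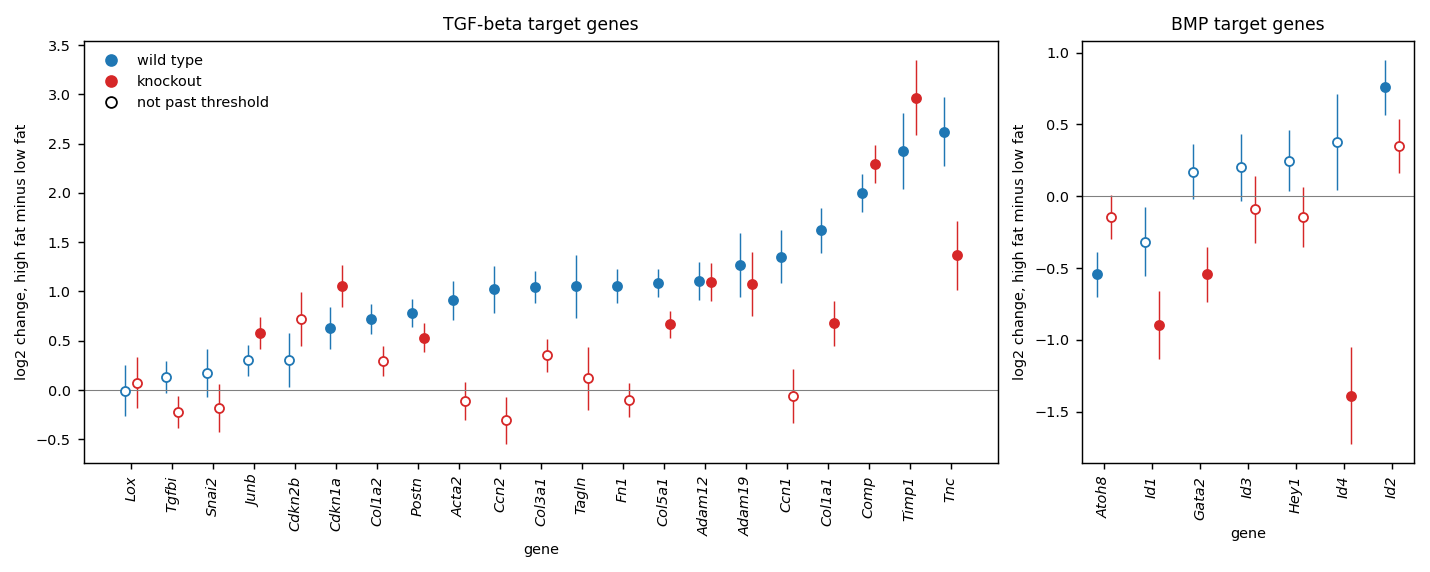
Log2 change from low to high fat in wild type (blue) and knockout (red) for the tested TGF-beta target genes (left, 21) and BMP target genes (right, 7), with standard errors; open points did not pass the threshold. Tnc at 2.62 and Timp1 at 2.42 lead the wild-type rises, and Id4 at -1.39 is the lowest knockout value.

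In the list for the latent complex and its activation, 5 of 14 tested genes rose with diet in wild type and none fell, and in the knockout 3 rose and 3 fell. Of all genes, 20.5% rose in wild type, and 15.6% rose and 13.5% fell in the knockout. Itgb5, an integrin chain that helps release TGF-beta, rose by 0.61 with diet in wild type (adjusted p = 0.000853, limma) and by 0.87 in the knockout on low fat (adjusted p = 0.000137), and its interaction was -1.001 (SE 0.17, adjusted p = 0.00143). Ltbp4, a latent TGF-beta binding protein, differed by -0.76 between knockout and wild type on high fat (adjusted p = 0.00414), with an interaction of -1.10 (adjusted p = 0.00512). Nrros, which holds latent TGF-beta on myeloid cells, rose by 1.01 in wild type (adjusted p = 0.00119) and 1.20 in the knockout (adjusted p = 0.000352). Bgn, the matrix proteoglycan biglycan, rose by 0.74 in wild type (adjusted p = 0.000838). On low fat 3 rose in the knockout and none fell, where 11.7% and 7.24% of all genes did. On high fat 2 rose, among them Ltbp2 by 1.35 (adjusted p = 0.0033), and 1 fell, against 8.58% and 6.47% of all genes. The interaction was below 0 for 2 genes, Itgb5 and Ltbp4, against 7.87% of all genes.

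Of 15 other ligands, antagonists and co-receptors, 4 rose and 2 fell with diet in wild type, and 1 rose and 6 fell in the knockout. Of all genes, 20.5% rose and 15.2% fell in wild type, and 15.6% and 13.5% in the knockout. On low fat 3 rose and 2 fell in the knockout, where 11.7% and 7.24% of all genes did. On high fat 1 rose and 3 fell, against 8.58% and 6.47% of all genes. The interaction was above 0 for 1 and below 0 for 2, against 5.12% and 7.87% of all genes. Rgma, a BMP co-receptor, changed by -0.99 with diet in wild type (SE 0.12, adjusted p = 1.62e-05, limma) and by -1.005 in the knockout on low fat (adjusted p = 3.99e-05). Amhr2, the receptor of anti-Müllerian hormone, rose by 1.58 in wild type (adjusted p = 7.71e-05) and had an interaction of -1.57 (adjusted p = 0.00538). Chrd, the BMP antagonist chordin, fell by 1.05 in wild type (adjusted p = 0.000973). Bmper, a secreted modulator of BMPs, rose with diet in the knockout by 1.02 (adjusted p = 0.00496) and was 1.16 higher than in wild type on high fat (adjusted p = 0.00447). Twsg1, a BMP-binding protein, changed by -0.69 with diet in the knockout (adjusted p = 0.0044).

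Of 20 intracellular regulators, 3 rose and 2 fell with diet in wild type, 4 rose and 2 fell in the knockout, 2 rose and 2 fell in the knockout on low fat, and 1 rose and 2 fell on high fat. That was 25%, 30%, 20% and 15% of the list, against 35.6%, 29.2%, 18.9% and 15.1% of all genes. None had an interaction past the threshold with limma, where 7 were at an unadjusted p under 0.05 and 13% of all genes passed. Nedd4l, a ubiquitin ligase that targets SMADs, rose by 1.18 with diet in wild type (SE 0.16, adjusted p = 6.45e-05, limma) and by 0.81 in the knockout on low fat (adjusted p = 0.0031). The ligase Wwp1 rose by 0.50 in wild type (adjusted p = 0.00136) and 0.54 in the knockout (adjusted p = 0.000958). Tgif1, a co-repressor of SMADs, rose by 1.09 with diet in the knockout (adjusted p = 0.00315). Smurf1, the ubiquitin ligase that removes BMP SMADs and receptors, differed by -0.58 between knockout and wild type on high fat (adjusted p = 0.00549).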

How the data were processed

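RNA from white adipose tissue of 16 samples, extracted with Trizol and columns and labelled from 5 ug, was hybridized to Affymetrix mouse arrays, per the labels' protocols. What the authors deposited is a log2 expression value for each probe set. The submitters' processing notes name GCRMA 2.20.0 and R 2.11.1. They ran from 0.594 to 14.2, and GCRMA estimates background, so differences between values under 4 carry little information. The sources used here name no batch, slide or fat depot.

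Groups came from the labels. Of 45037 probe sets, 34945 had 1 symbol, 932 several and 9160 none in the platform annotation, and only the first kind was used. Each of 18193 genes was represented by its probe set with the highest mean, and 12078 that reached 4 on the log2 scale in no fewer than 4 arrays were tested. All 54 members matched the RefSeq gene table (GRCm38.p6), the source of coordinates; 33 had several probe sets, 110 in all. Setting each member call beside each further tested probe set of its gene gave 24 pairs, with several pairs for some calls. In 23 of these pairs the sign was the same, whether or not the further probe set passed.

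With limma 3.58.1 (R 4.3.3), group means were fitted and compared by two-sided moderated tests, with 12 residual and 3.84 prior degrees of freedom. The Benjamini-Hochberg adjustment ran over all genes tested, and the threshold was 0.05. Probe sets other than the brightest were adjusted over all probe sets that passed the filter. SE is the moderated standard error. Scripts were tested on simulated data. With 4 arrays a group, their number limits the precision.

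The members and lists were chosen with earlier results of these data known. The 5 pathway lists held 102 genes, of which 96 were matched (1 by an older symbol) and 77 tested, and the 9 marker lists held 88, of which 84 were matched. Values in every array are given for members that passed in a comparison without overlap of its groups, and for some others chosen after their values were seen. Up to 4 genes of a list with the smallest p in a comparison were named. Marker sums add linear signals. The labels state no pairing, so the main fit did not treat same-numbered arrays as pairs. Their deviations from group means correlated between -0.321 and 0.199 in 24 pairs, and 5 pairs exceeded 0.1. Alternatives varied the probe set of a gene, scaling, the filter and floor, array weights, the variance model, the samples in the fit and the threshold, added the replicate block, or left out arrays.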

Additional observations from a re-analysis of the deposited data

Results flagged for a closer look

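Single arrays stood far from the other 3 of their group in 6 of 140 sets of 4 arrays examined over the tested members (4.29%), where chance gives about 1 in 20. Bmp2 was 7.09 and Bmp5 6.91 in WT-high 4, while the other 3 arrays ran from 5.84 to 5.98 for Bmp2 and from 4.39 to 4.65 for Bmp5. Acvr1b, an activin receptor, was 10.63 in WT-low 4, against 9.75 to 9.81. In knockout fat on low fat, Inhbb was 11.22 in replicate 2, against 9.93 to 10.12. In replicate 4 of that group, Bmp2k was 9.11, against 9.70 to 9.74, and Smad1, a transducer of BMP signals, was 11.53, against 11.79 to 11.84.

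The response to diet differed between genotypes by the interaction test of limma for 7 of 35 tested members (20%), against 13% of all genes. All 7 calls ended when the 5 arrays with Tnnt3 at 8 or more were left out. The difference was 1.93 for Gdf3, -2.02 for Bmp4, -1.93 for Inhbb, -1.18 for Tgfb1i1, -0.91 for Tgfb3, -0.90 for Fstl1 and -0.84 for Smad7. Each is the log2 diet change in the knockout minus that in wild type. The Gdf3 value includes differences among signals under 4. With values under 4 set to 4 it only repeats the genotype difference on high fat.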

How the results depend on the processing

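Of 43 member calls, 15 held under every alternative that tested them, the 2-fold minimum aside, which was applied to counts only, and 28 were lost under at least 1, of which 16 under the removal of a single array. The 15 were those of Tgfb1 in 3 comparisons, of Gdf3, Bmp4 and Bmp6 with diet in the knockout and in the knockout on high fat, and of Inhbb, Tgfb3, Fstl1, Bmp1, Tgfb1i1 and Acvrl1 with diet in wild type. Those of Bmp6, Tgfb3, Bmp1, Tgfb1i1 and Acvrl1 were changes of less than 2-fold, and Gdf3 was not tested at a filter of 6. Gdf3 also passed the main filter through high fat arrays alone. With the floor at 4 its low fat groups have no spread, which lowers its p-values, so that setting was no test of its calls. Of 116 calls in the pathway lists, 50 held in the same sense. A sign turned for Bmpr2 with diet in the knockout (0.18 with the probe set of the largest SD) and for Skil, a SMAD co-repressor, in the same comparison (0.018 with the mean over probe sets, against -0.29). The replicate block kept the sign of all member calls and gave 11, 13, 4, 6 and 7 members past the threshold for diet in wild type, diet in the knockout, knockout on low fat, knockout on high fat and the interaction, against 12, 12, 5, 7 and 7; for the pathway lists it gave 33, 30, 19, 17 and 10 against 34, 32, 22, 18 and 10. A minimum change of 2-fold beside the threshold left 4, 3, 1, 4 and 4 members, and 17, 12, 5 and 5 pathway genes for the first 4 comparisons. Without the 5 arrays with Tnnt3 at 8 or more, which leaves fewer samples, 3 members passed in the knockout on low fat, 4 in the knockout on high fat and 1 in the interaction. The pathway genes there numbered 21 for diet in the knockout, 6 and 7 for the knockout on low and high fat and 3 for the interaction. Fitting only the groups compared left 1 member and 9 pathway genes for the knockout on low fat. Means over probe sets gave 9 members for the knockout on low fat, 11 on high fat and 17 pathway genes for the interaction, the probe set of the largest SD 8 members for the knockout on low fat, and array weights 15 members for the knockout on high fat and 23 pathway genes for the interaction; the cause was not tested. Leaving out single arrays gave 9 to 14 members for diet in wild type, 7 to 14 for diet in the knockout, 3 to 8 for the knockout on low fat, 5 to 9 on high fat and 5 to 10 for the interaction. For diet in the knockout, 7 remained without KO-high 1. For the knockout on low fat, 3 passed without WT-low 1 or 3 or KO-low 1 or 2, and 8 without WT-low 4. For the pathway lists the ranges were 29 to 37, 23 to 33, 15 to 26, 12 to 19 and 7 to 19, the last with 19 without WT-low 2 and 16 without KO-low 4. Signals under 4 limit what can be said of Gdf3 in low fat arrays, of Bmp5 and of Acvr2b.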
